A study of Glycine max with 5 samples.

Results

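DAO, the soybean diamine oxidase gene, and LOC548088, whose synonym is ODC1, an ornithine decarboxylase gene, were each measured by 1 probe set on an Affymetrix soybean array. Both probe sets were found by taking every probe set that the platform annotation pairs with 1 of these genes alone, which gave 2 of the 8677 single-gene probe sets and of 37593 probe sets in all; the 2 genes were among 6031 with such a probe set. Both genes were picked for study because they had been seen to be high in root tips, so their values in that contrast are given as a description, with no test.

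The RNA came from soybean (Glycine max) seedlings of genotype Bragg at an age of 10 days, grown at 28 °C under natural long days in potting mix with no fertilizer. One group was 3 arrays of root tips of 0.5 mm, labelled as root apical meristem. The other was 2 arrays of non-meristematic tissue, which one label calls leaf and the treatment notes call the rest of the plant. No transgene or chemical treatment is named for either group. The sample descriptions speak of embryos, against every other label, and were not used. The samples are biological replicates by their titles, which do not say whether plants were pooled.

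Polyamines are small positively charged molecules that bind nucleic acids and membranes and that plant cells need for growth and division. Putrescine, the diamine at the base of the pathway, is made from ornithine by ornithine decarboxylase, or from arginine by arginine decarboxylase and later enzymes. S-adenosylmethionine decarboxylase supplies the groups that turn putrescine into spermidine and spermine. Diamine oxidases are copper enzymes, in legumes typically in the cell wall, that break putrescine down to an aminoaldehyde, ammonia and hydrogen peroxide. Aminoaldehyde dehydrogenases can then convert the aldehyde to GABA, and peroxidases in the wall can use the peroxide.

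The 2 groups stood far apart on the array as a whole. Spearman correlations of log2 signal across 30941 probe sets ran from 0.965 to 0.976 within root meristem and from 0.599 to 0.626 between groups, and the pair of non-meristematic arrays had 0.871; probe sets are not independent replicates. Of 7 leaf and chloroplast markers, 6 were lower in root meristem and none higher, and the median signal of the 7 was 23.9 to 47.9 on root meristem arrays against 4480 and 3178. The marker that was not lower on its brightest probe set, PSAD, read 4661.5 to 4996.1 on that probe set in root meristem. That was most of the summed signal of the list on those arrays (5057 to 5335). On 2 other probe sets PSAD was lower, at means of 306.9 against 8483 (log2 -4.81) and 32.7 against 2864 (log2 -6.54). Its remaining probe sets were below background on every array and were not tested. The other 6 markers summed to 338.7 to 397.2 against 28790 and 22800. All 3 root tip and division markers (PIN2A, H4 and PCNA) were higher there, with sums of 5560 to 6350 against 1374 and 1054. All 4 phloem markers were lower, at 261.5 to 458.1 against 4668 and 4374. All 4 seed maturation markers were higher, and their sum differed among the root meristem arrays: 11220, 6726 and 3836 on arrays 1, 2 and 3, against 72.1 and 43.5. The part of these other tissues in the results below was not tested. Beside these marker counts, 18.6% of the 5652 named genes tested were higher in root meristem and 21.0% lower. The marker lists were chosen with earlier results of these data known, so the counts are no independent check of the labels. Root tips were set here against tissue labelled leaf in one place and the rest of the plant in another, so that organ and cell division cannot be told apart, and in bulk RNA fewer cells of a type and less RNA per cell cannot be told apart either.

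Signals are MAS5 signals, a linear brightness per probe set. Background was taken as the 25th percentile of each array. In array order it was 22.5, 20.7 and 17.9 for root meristem, and 37.0 and 26.3 for non-meristematic tissue.

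The DAO signal was 9837.4, 10180.1 and 9103.1 on root meristem arrays 1, 2 and 3, against 3.0 and 1.8 on the non-meristematic arrays, in the order 1 and 2. All 3 root meristem arrays were high and close to each other, both non-meristematic arrays lay far below background, and the groups did not overlap. The means were 9707 ± 550 (SD, n = 3) and 2.40 ± 0.85 (SD, n = 2). With the non-meristematic arrays held at their background, DAO was at least 311-fold higher in root meristem, or at least 140-fold with background at the 40th percentile. The suffix of its probe set, _s_at, marks it as able to hit several transcripts, so that other amine oxidase genes of similar sequence could add to this signal. No other single-gene DAO probe set was listed against which it could be compared.

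The ODC1 signal was 1473.7, 2221.8 and 2202.3 on root meristem arrays 1, 2 and 3, against 25.3 and 21.9 on the non-meristematic arrays, in the order 1 and 2. Root meristem array 1 was the lowest of its group, and the groups did not overlap. Both non-meristematic values were below the background of their own array. They would, however, lie above that of root meristem arrays 2 and 3, and 25.3 above that of array 1 too. The means were 1966 ± 426 (SD, n = 3) and 23.6 ± 2.4 (SD, n = 2), a difference of at least 61.9-fold, or at least 28.0-fold with background at the 40th percentile.

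Over all probe sets tested, 34.0% had groups that did not overlap with root meristem higher. The pattern of DAO and ODC1, above background on every root meristem array and on neither other array with a difference that passed (limma, adjusted p below 0.05 and a log2 difference of at least 1), was found at 2.51%. Since both genes were chosen on this contrast, nothing is read from their having it. When dim signals were held at background on all arrays, the log2 difference of DAO was 8.28, rank 1 of 30941 probe sets, and that of ODC1 was 5.95, rank 39.

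**Figure D1:**
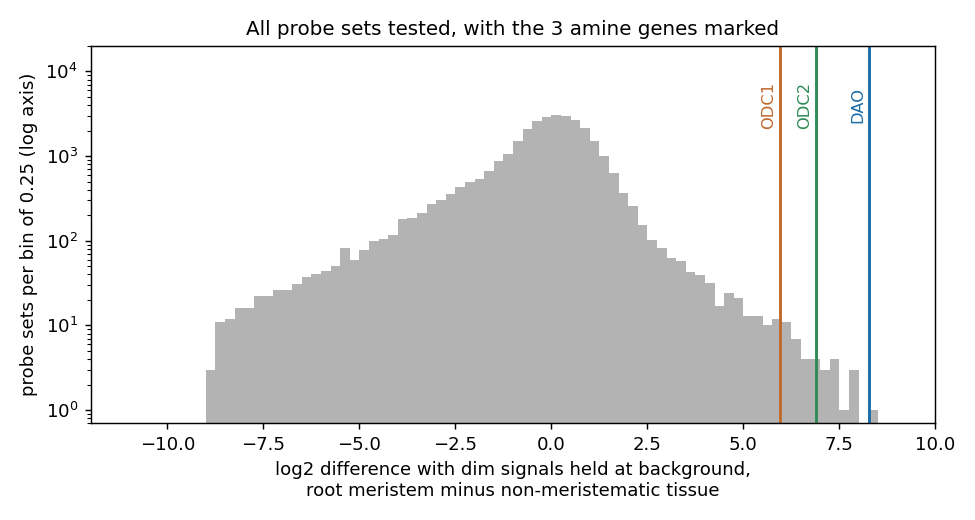
Histogram of the log2 difference (root meristem minus non-meristematic tissue, dim signals held at the background of their array) over 30941 probe sets, with a log count axis and bins of 0.25. Vertical lines mark DAO at 8.28, ODC2 at 6.89 and ODC1 at 5.95, all in the thin upper tail.

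Among the root meristem arrays themselves, a measure that the choice of the genes did not use directly, DAO and ODC1 differed in steadiness. The standard deviation of log2 signal over the 3 arrays was 0.083 for DAO and 0.34 for ODC1, where the median over 26341 probe sets above background on all 3 was 0.23. Of those probe sets 10.6% varied less than DAO and 73.9% less than ODC1. The probe sets were not matched on brightness in root meristem, for which the genes were chosen, and each spread rests on 3 arrays. The low ODC1 value stood on array 1, which also had the highest seed maturation signal; the part of that difference was not tested. Leaving array 1 out gave ODC1 a bound of 70.9-fold.

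ODC2, a second ornithine decarboxylase gene, had the same pattern and was higher in root meristem. Its signal was 3713.6, 3797.0 and 3626.5 on root meristem arrays 1, 2 and 3, against 23.5 and 1.7 on the non-meristematic arrays, in the order 1 and 2. The root meristem values lay within a narrow range (1.75% of the probe sets above varied less), and both other arrays were below background. The means were 3712 ± 85 (SD, n = 3) and 12.6 ± 15.4 (SD, n = 2), at least 119-fold apart. With background at the 40th percentile, a setting added for this gene after seeing the data, the bound was 53.8-fold. The fitted log2 difference, which used the values below background, was 9.20 ± 0.97 (SE, limma adjusted p = 0.000764). ODC2 was tested only because it was above background on the root meristem arrays, so nothing is read from this p-value. The bound itself was not tested. The probe sets of ODC1 and ODC2 carry no suffix for shared targets, but how far the 2 related transcripts share signal was not tested. Over the 5 arrays, both genes were thus above background in root tips and on neither array of other tissue.

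ADC, the arginine decarboxylase gene that opens the other route to putrescine, was well above background in both tissues. Its brightest probe set read 2051.3, 1944.0 and 1975.5 in root meristem, against 2815.0 on non-meristematic array 1 and 1655.8 on array 2. The non-meristematic values lay on either side of the root meristem values, so the groups overlapped, and the log2 difference of -0.12 ± 0.24 (SE) did not pass (limma adjusted p = 0.724). None of the 5 ADC probe sets passed, with log2 differences from -0.41 ± 0.54 to 0.55 ± 1.03. This rested on both non-meristematic arrays. Without array 1 all 5 differences were positive, from log2 0.27 to 2.56, and without array 2 all 5 were negative, from log2 -0.47 to -1.46. The largest without array 1, log2 1.98 and 2.56, were of 2 probe sets with the same design cluster number, so their signals may not be separate.

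**Figure D2:**
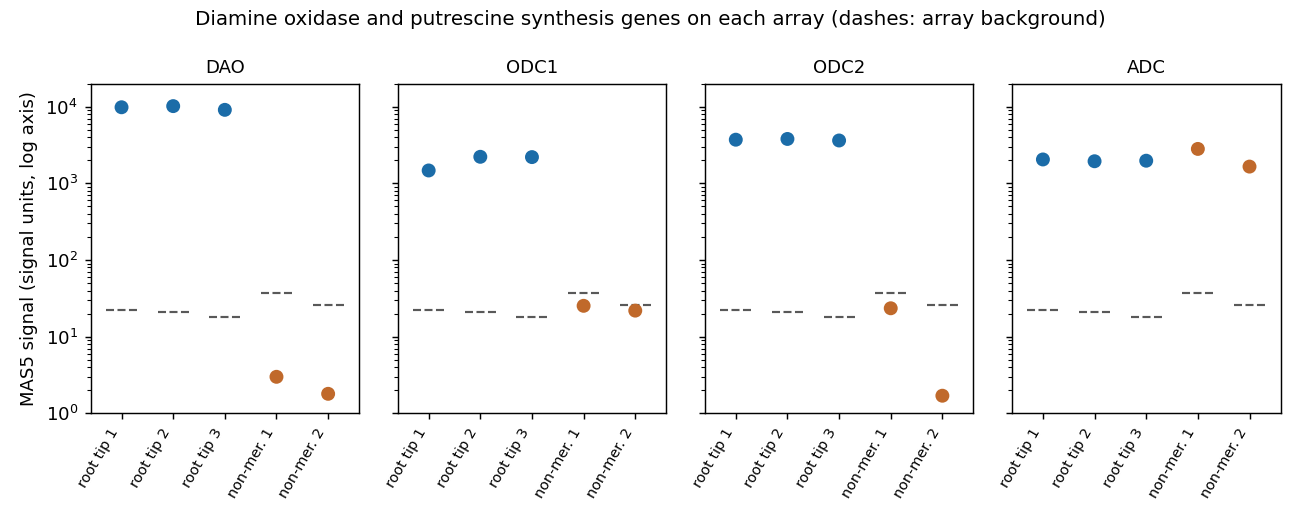
MAS5 signal (log axis) of DAO, ODC1, ODC2 and ADC on the 3 root tip arrays (blue) and the 2 non-meristematic arrays (orange), each point 1 array, with dashes at the background of each array. DAO, ODC1 and ODC2 lie below the dashes on both non-meristematic arrays, while ADC lies above them on all 5.

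The 5 ADC probe sets were steady among root tips and spread between the non-meristematic arrays. Within root meristem the highest array was 1.04 to 1.15 times the lowest. Between the non-meristematic arrays the fold was 1.70 on the brightest probe set and 16.3 on the dimmest, which read 869.7 on array 1 and 53.3 on array 2. Array 1 was the higher on all 5 probe sets. Of 26410 probe sets above background on both arrays, 0.405% had a fold larger than 16.3 and 24.2% one larger than 1.70.

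**Figure D3:**
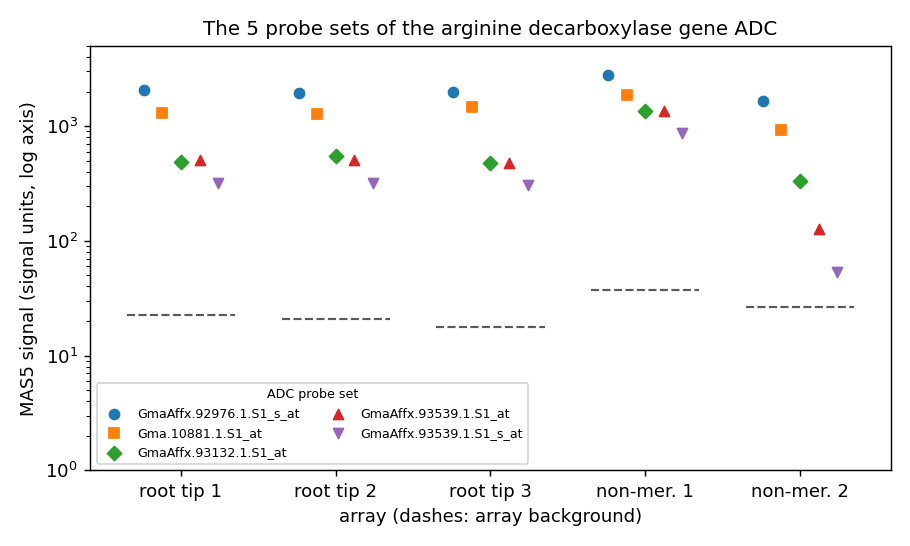
MAS5 signal (log axis) of each of the 5 ADC probe sets (one marker shape each) on the 5 arrays, with dashes at array background. The 5 probe sets differ in height on every array. Each keeps a like height across the 3 root tip arrays, and on non-meristematic array 2 they reach down to 53.3.

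Of 6 polyamine pathway genes other than DAO and ODC1, 2 were higher in root meristem (limma), none was lower and 4 did not pass. Among all 5652 named genes tested, 18.6% were higher and 21.0% lower. The median log2 difference was 0.54 for the 6 genes and 0.20 for all named genes. The higher ones were ODC2, which entered the test through its root meristem arrays alone, and ALDH10A2.

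ALDH10A2, whose synonym BADH1 names a betaine aldehyde dehydrogenase, belongs to the family of aminoaldehyde dehydrogenases that act after diamine oxidase. Its signal was 6365.9, 5717.0 and 4884.2 on root meristem arrays and 1466.7 and 1469.4 on the others. It was 3.83-fold higher in root meristem (log2 1.94 ± 0.16 SE, limma adjusted p = 0.000282), with no overlap. Its paralog ALDH10A1 read 2779 ± 455 (n = 3) against 2161 ± 23 (n = 2) and did not pass (log2 0.35 ± 0.17 SE, limma adjusted p = 0.156). Its groups did not overlap either, as at 34.0% of all probe sets tested with root meristem higher.

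SAMDC, the S-adenosylmethionine decarboxylase gene, had a signal of 4452 ± 387 (n = 3) against 2737 ± 877 (n = 2), with no overlap. Its log2 difference of 0.74 ± 0.22 (SE) had an adjusted p of 0.034 (limma) but was under the minimum size of 1. It passed with each array centred on its median (log2 1.09) and without non-meristematic array 1 (log2 1.07). PAO1, placed in the list by its symbol, which can stand for polyamine oxidase, read 1209 ± 196 against 986 ± 166 and did not pass (log2 0.29 ± 0.21 SE, limma adjusted p = 0.32). No spermidine or spermine synthase, agmatine deiminase or polyamine transporter was found by symbol, and these steps were not analysed here.

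**Figure D4:**
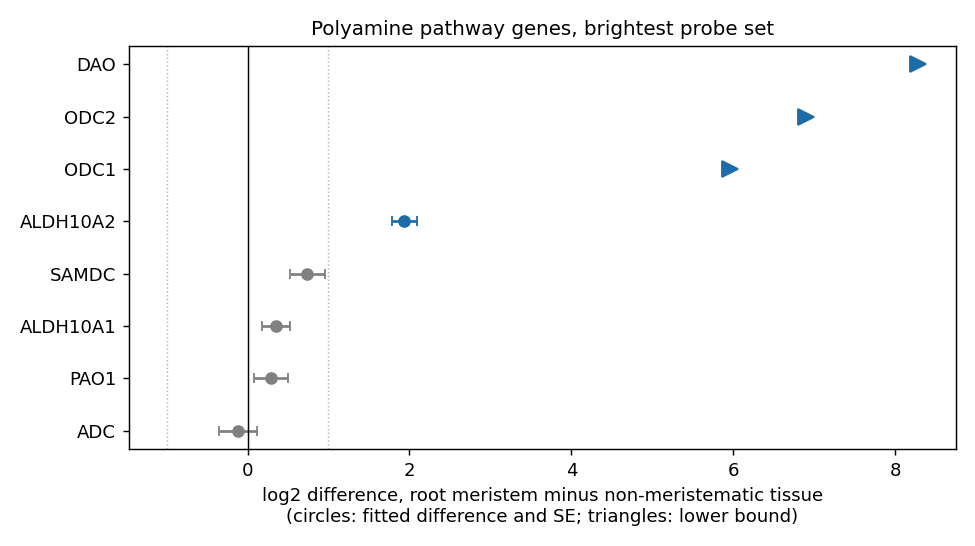
Log2 difference (root meristem minus non-meristematic tissue) of the 8 polyamine pathway genes on their brightest probe set. Circles with bars are fitted differences with SE (blue passed, grey did not), triangles are lower bounds for genes below background in non-meristematic tissue, and dotted lines mark a difference of 1. DAO, ODC2 and ODC1 lie at 8.28, 6.89 and 5.95 or more, and the other 5 genes between -0.12 and 1.94.

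Of 18 genes tested in lists that border the polyamine pathway, 4 were higher in root meristem, 5 lower and 9 did not pass (limma), beside 18.6% higher and 21.0% lower over all named genes. Their median log2 difference was 0.02. Without non-meristematic array 1, 6 were higher and 3 lower: ACS1 and PRX2 then passed, and CAT5 and PRX2B no longer did. In the arginine, proline and GABA list, 2 of 4 genes were higher and 1 lower. LOC100796533, listed by its synonym GAD, which can stand for glutamate decarboxylase, an enzyme that makes GABA from glutamate, was 3.71-fold higher (3830 ± 140 against 1033 ± 55, limma adjusted p = 0.000201). A second gene with that synonym, LOC547724, was 5.94-fold lower (226 ± 47 against 1512 ± 1030, limma adjusted p = 0.00525), with log2 -2.57 in all, -3.33 without non-meristematic array 1 and -1.81 without array 2. P5CR, the pyrroline-5-carboxylate reductase of proline synthesis, was 2.05-fold higher (1186 ± 44 against 577 ± 9.1, limma adjusted p = 0.00363), a call lost after quantile normalization (log2 0.94). PDH, listed by its symbol, which can stand for proline dehydrogenase, did not pass (log2 -0.46 ± 0.59 SE).

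Of 13 genes that make or remove hydrogen peroxide, the other product of diamine oxidase, 2 were higher in root meristem, 4 lower and 7 did not pass, beside the same 18.6% and 21.0%. PRX4, a peroxidase gene, read 2645.7, 2855.1 and 3305.4 on root meristem arrays and 140.9 and 352.2 on the others, a 13.1-fold difference (limma adjusted p = 0.00065), or 8.30-fold without non-meristematic array 1 and 20.7-fold without array 2. APX2, an ascorbate peroxidase gene, was 2.84-fold higher on its brightest probe set (2375 ± 168 against 835 ± 38, limma adjusted p = 0.000703). On a far dimmer probe set it did not pass (means of 40.97 against 32.25, log2 0.315 ± 0.39 SE), and its remaining probe set was not tested. CAT4, a catalase gene, was 6.54-fold lower (797 ± 163 against 5143 ± 401, limma adjusted p = 0.000236), while CAT1 did not pass (950 ± 36 against 937 ± 180, limma adjusted p = 0.905). The peroxidase gene PRX2B was 2.23-fold lower (limma adjusted p = 0.00462), a call lost with median centring (log2 -0.81) and without non-meristematic array 1 (log2 -0.96). The other 2 lower genes, the catalase gene CAT5 and the superoxide dismutase gene SODB, were dimmer, fell outside the naming rule and are named after their values were seen. The CAT5 call was lost without root meristem array 2, root meristem array 3 or non-meristematic array 1 (limma adjusted p = 0.0576, 0.0644 and 0.064). PRX2 (log2 0.99 ± 0.14 SE), APX1 (0.43 ± 0.12) and SOD1 (0.52 ± 0.16), a superoxide dismutase gene, did not reach the minimum size. PRX2 did so with median centring (1.35), without root meristem array 1 (1.06) and without non-meristematic array 1 (1.01). The APX1 value is of its brightest probe set. Its other tested probe sets had log2 differences of -0.04 ± 0.18, 0.22 ± 0.17 and -0.88 ± 0.52 (SE) and did not pass. The last moved to log2 -0.26 without non-meristematic array 1 and to -1.51 without array 2.

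S-adenosylmethionine is also the source of ethylene. ACS1, a synthase of the ethylene precursor, read 364.7, 226.7 and 107.7 in root meristem, against 654.6 on non-meristematic array 1 and 15.4 on array 2. Those 2 arrays lay on either side of the root meristem values, and the gene did not pass (log2 1.05 ± 1.44 SE, limma adjusted p = 0.599). Without non-meristematic array 1 the difference was log2 3.75, and without array 2 it turned to log2 -1.66. These values are of its brightest probe set. Its other 2 probe sets had log2 differences of -2.9 ± 1.8 and 0.07 ± 1.6 (SE) and did not pass either. The latter moved to log2 3.11 without non-meristematic array 1 and to -2.98 without array 2.

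The genes with the pattern most like that of DAO and of ODC1 were found by distance, over the 5 arrays, between log2 signals held at background and centred on their mean, among 1615 probe sets with a gene name other than a LOC number. These are descriptions, since any gene high in root tips and dim elsewhere comes close. For DAO the 5 nearest were BBI-2 (distance 0.418), a Bowman-Birk protease inhibitor gene, CHR5 (0.476), a chalcone reductase gene, BBI-1 (1.44), ODC2 (1.52) and CHR1 (1.64). BBI-2 read 7389.8, 8579.9 and 6806.9 on root meristem arrays and 3.0 and 6.2 on the others. For ODC1 they were PIN2A (0.291), an auxin efflux carrier gene, CHR1 (0.425, on another probe set), DIR22 (0.554), CHS8 (0.963), a chalcone synthase gene, and PRP1 (1.01), a proline-rich protein gene. PIN2A read 1739.5, 2400.5 and 1983.6 against 26.1 and 25.2, with its lowest root meristem value on array 1, as ODC1 had. CHR1 (on that probe set), DIR22 and CHS8 had theirs there too, while PRP1 had its highest there. The distance used these same arrays, so a shared low value is favoured by the choice. ODC2 was the 7th nearest gene to ODC1, at a distance of 1.14.

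In the gene order of the reference assembly, the gene directly after ODC1 and the one directly after ODC2 were both lower in root meristem. Neighbouring genes were looked up after the main values were known. LOC100306554, directly after ODC1, had 3 probe sets, all lower in root meristem. Its brightest read 468.3, 681.8 and 561.4 on root meristem arrays against 8730.2 and 11013.2 (log2 -4.12 ± 0.21 SE, limma adjusted p = 6.55e-05). The one with the largest difference read 81.7, 131.5 and 107.2 against 7239.0 and 7222.2 (log2 -6.11 ± 0.25 SE, limma adjusted p = 3.16e-05). The remaining one had a log2 difference of -5.43 ± 0.21 (SE). LOC100499708, directly after ODC2, read 82.0, 81.8 and 37.0 against 7402.7 and 8365.6 (log2 -6.97 ± 0.38 SE, limma adjusted p = 7.62e-05). Probe sets of the 2 neighbours share a design cluster number, and the brightest of LOC100306554 shares that of CAB3, so their signals may not be separate. SMT2-1 and SMT2-2, a pair of like name, stand at the same place, 4 genes after ODC1 and ODC2. SMT2-1 had no single-gene probe set, and SMT2-2 did not pass (log2 0.73 ± 0.12 SE). Of 10 neighbours, 5 on each side, 1 had a probe set beside DAO, 2 beside ODC1 and 5 beside ODC2. The 2 named were lower and none higher on its brightest probe set, where 18.1% of all probe sets tested were lower and 14.4% higher. Counted by gene on the brightest probe set, as the neighbours were, 21.0% of the 5652 named genes tested were lower and 18.6% higher. Whether neighbours were lower more often than other genes was not tested. The gene measured beside DAO, LOC100305645, had a log2 difference of 0.96 ± 0.12 (SE) on its brightest probe set, just under the minimum size, and passed as higher on 2 of its other 3. Without non-meristematic array 2 the brightest passed too (log2 1.04), and without root meristem array 1 one of the other calls was lost.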

How the data were processed

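The deposited values were MAS5 signal intensities per probe set, linear in scale, according to the submitters' processing notes and the values. The MAS5 version is not given in the sources used here, nor are its scaling target and detection calls. Biotin-labelled cRNA came from 6 µg of total RNA, per the labels' protocols. Trimmed mean signals were 267.7 to 276.0 and medians 77.8 to 111.6. For log2, any signal under 0.1 was raised to 0.1, and the arrays were not scaled again. Testing was limited to probe sets above background on at least 2 arrays. The groups were compared with limma 3.58.1 in R 4.3.3 (lmFit, eBayes with intensity trend), with Benjamini-Hochberg adjustment over the 30941 so tested. To pass, an adjusted p below 0.05 and an absolute log2 difference of at least 1 were needed. The procedure was tested on simulated data in which all 5 arrays had the spread of the root meristem arrays. The real non-meristematic arrays were less alike, so the simulation does not give the error rates here. Arrays carry no molecule counts, and their number limits the precision; the titles speak of biological replicates without saying from which plants, so p-values cover the spread between samples, which may be technical.

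Names came from the platform annotation, updated by Entrez number (8652 of 8677 single-gene probe sets) with RefSeq's genes of Glycine_max_v4.0, used for names and gene order alone; 370 probe sets had several genes and 28546 were not listed. Lists were filled by symbol and synonym; ARGS, MAT1, ACSL2 and PERK1 were dropped as matches by letters alone, and ADC was kept in the polyamine list alone. Each gene stood by its brightest tested probe set (by mean log2 signal), and up to 8 genes a list were named. The members and lists were chosen with earlier results of these data known. An "at least" fold sets each dim array to the higher of its background and its own signal.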

Additional observations from a re-analysis of the deposited data

How the results depend on the processing

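The fitted log2 difference of DAO was 12.03. It was 12.49 after quantile normalization, 12.38 after median centring, 9.24 with a floor of 16, 8.28 held at background, and 11.66 to 12.40 with 1 array left out. Its lower bound of 8.28 became 8.69, 8.63 and, with background at the 40th percentile, 7.13, and ran from 8.03 to 8.53 with 1 array left out. For ODC1 the fitted 6.36 became 6.69 after quantile normalization, 6.71 after median centring and 5.95 held at background, and its bound of 5.95 became 6.31 after median centring and 4.81 at the 40th percentile. Of all probe sets 10060 passed, 4452 higher and 5608 lower; a filter on all 5 arrays left 6518, and 1 gene of the polyamine list in place of 2, since ODC2 was then not tested. Quantile normalization gave 5719 higher and 4717 lower, and median centring 7668 and 4689, while the median log2 difference moved from 0.072 to 0.30 and 0.43. ODC2 kept its call under the other 13 alternatives and ALDH10A2 under 14. With the replicate number as a block, 7589 probe sets passed and the polyamine list kept 2 calls; same-numbered arrays had correlated deviations of 0.0987 and -0.0888, so the numbers were not taken to pair the samples. With 1 non-meristematic array left out, the lone array is assumed to vary like the others. DAO and ODC1 have no other probe set, so that alternative was not run. Signals under background set the limit of both folds.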
